A study of Mus musculus with 2 samples.

Results

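Malat1, Neat1 and 6 genes for proteins of paraspeckles or of the nuclear RNA-binding machinery around them were examined in E14TG2a mouse embryonic stem (ES) cells. The genes were taken by name, as Malat1, Neat1, Nono, Sfpq, Pspc1, Tardbp, Rbm14 and Matr3, and all 8 were found among the 28592 genes of the deposited table. The cells, an Hprt-deficient male line, were held in the naive ground state of pluripotency by 2i/LIF medium, which inhibits MEK and GSK3 and supplies leukaemia inhibitory factor. The series has this 1 group, with 2 replicates and no second genotype, treatment or time. Total RNA was depleted of ribosomal RNA and sequenced from strand-specific libraries, and levels are given as FPKM (fragments per kilobase of transcript, relative to the total of mapped fragments). The scaling by length lets levels of different genes be set side by side, as far as the transcript lengths assumed for them hold.

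Paraspeckles are nuclear bodies built on the long non-coding RNA (lncRNA) Neat1. Its long isoform is the scaffold, and the short isoform, which ends at an early polyadenylation site in the same first part of the gene, does not build the bodies by itself. NONO, SFPQ and PSPC1, the DBHS family (named for the fold they share in Drosophila behaviour and human splicing proteins), coat the RNA, and RBM14 holds the body together. Malat1, the lncRNA gene beside Neat1, gives an RNA that collects in nuclear speckles, which store splicing factors. In human and mouse pluripotent cells the protein of Tardbp is known to favour the short Neat1 isoform, and paraspeckles are known to be scarce before differentiation.

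By their ES cell markers the cells matched their label. All 8 ES cell markers were above 1 FPKM in both replicates, the limit used here for detection, from Dppa5a at 7048 ± 107 FPKM, Pou5f1 at 976 ± 40.8, Zfp42 at 382 ± 7.56, Nanog at 268 ± 1.44, Sox2 at 168 ± 9.38, Esrrb at 94.6 ± 5.39 and Tfcp2l1 at 69.3 ± 0.417 to Klf4 at 12.5 ± 1.57 (mean ± SD, n = 2, as for all values below). Of 13 markers of differentiated cells and fibroblasts 3 were detected, T at 12.4 ± 0.733, Otx2 at 3.74 ± 0.108 and Cdx2 at 1.29 ± 0.240, while Fgf5 was at 0.0488 ± 0.0210 and Gata6 at 0.00867 ± 0.0123. The FPKM totals were 946498 for replicate 1 and 928174 for replicate 2, while read depth is unknown. Nothing in the labels tells separate cultures from repeat libraries, so the spread between replicates may be technical. With 2 values a gene, an exact two-sided permutation test between a pair of genes cannot give a p below 0.33, so no such test was made and levels are described.

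All 8 genes were detected, where 39.4% of all genes in the table were. Of the 8, 5 had a mean of at least 100 FPKM, a level that 3.69% of all genes reached. Their median was 169 FPKM, with 168 and 171 in replicates 1 and 2, beside 12.7 over the 11253 detected genes and 0.233 over all genes. They spanned a 31.7-fold range, from Malat1 at the top to Rbm14 at the bottom. The order was Malat1, Matr3, Tardbp, Nono, Sfpq, Pspc1, Neat1, Rbm14. Of the 7 neighbouring pairs in that order, 6 had values that did not overlap across the replicates, and only those of Matr3 and Tardbp did.

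**Figure D1:**
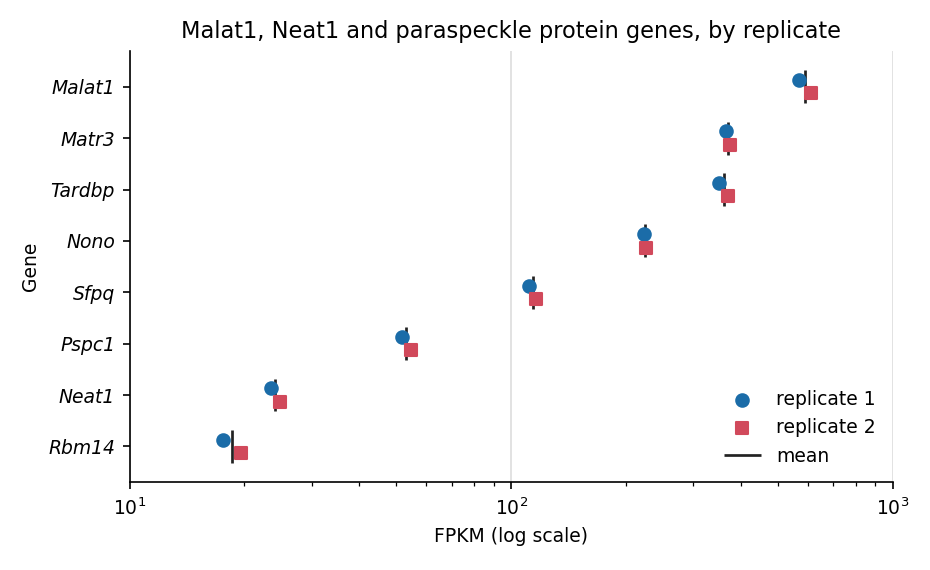
FPKM of the 8 genes (log axis) in replicate 1 (circles) and replicate 2 (squares), with the mean of the 2 as a vertical bar. Malat1 stands highest at 567 and 611 FPKM and Rbm14 lowest at 17.6 and 19.6, and the ranges of Matr3 and Tardbp overlap.

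The lncRNAs stood far apart. Malat1 (ENSMUSG00000092341.2, GRCm38 chromosome 19, 5795690 to 5802672) was at 567 FPKM in replicate 1 and 611 in replicate 2, a mean of 589 ± 31.0. It ranked 211 among all genes, at percentile 99.3, and 2 among the 3148 genes that RefSeq types as lncRNAs. Neat1 (ENSMUSG00000092274.2, chromosome 19, 5824708 to 5845480) was at 23.4 and 24.8 FPKM, a mean of 24.1 ± 0.933. This put Neat1 at percentile 86.8 of all genes, at percentile 66.6 of the detected ones, and at rank 37 among the lncRNAs. Malat1 was 24.2-fold above Neat1 in replicate 1 and 24.7-fold in replicate 2, a difference of 4.56 ± 0.02 in log2(FPKM + 1). Neat1 was thus an upper-range lncRNA with a level above the median of detected genes, while Malat1 was among the most abundant RNAs in the table.

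RefSeq holds 2 Neat1 transcripts, and the table gives 1 value for the gene. The short and the long isoform cannot be told apart in it, so the level of Neat1 is not a level of the paraspeckle scaffold. The level of Neat1, and its ratios to other genes, also depend on the transcript lengths assumed, which are not known here. In RNA pooled from many cells, a low level in every cell and a high level in a few cells cannot be told apart either. RefSeq also places Mascrna, the small tRNA-like RNA cut from the 3′ end of Malat1, within the Malat1 span (5795924 to 5795981), and the level of Malat1 includes no separate value for it.

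**Figure D2:**
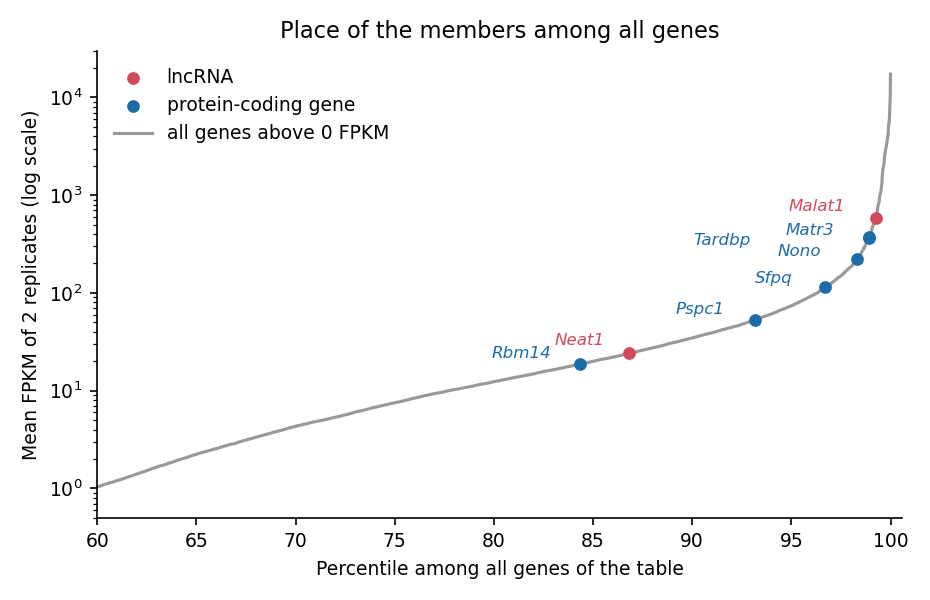
Mean FPKM (log axis) against percentile among all genes of the table, from percentile 60 upwards, with lncRNAs in red, protein-coding genes in blue and all genes as a grey curve. Malat1 lies at percentile 99.3, and Neat1 and Rbm14 lie on the flatter part at 86.8 and 84.3.

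The genes closest in level to each lncRNA were found by the distance in log2(FPKM + 1) over the 2 replicates, which is all the likeness that 2 samples of 1 group can show. For Malat1 they were Sumo2, the gene of a small protein modifier, at 557 and 602 FPKM (distance 0.03), the mitochondrial chaperone gene Hspd1 at 562 and 597 (0.04) and Sec61g, a subunit of the translocation channel of the endoplasmic reticulum, at 556 and 580 (0.08). Only 4 genes lay within 0.1 of Malat1. For Neat1 they were Tut1, a terminal uridylyltransferase gene, at 23.3 and 24.7 FPKM, Tmf1 at 23.5 and 24.6 and the kinase gene Mapk8 at 23.3 and 24.9, each within 0.01, and 141 genes lay within 0.1.

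The DBHS genes formed a graded series, with Nono 1.97-fold above Sfpq and Sfpq 2.15-fold above Pspc1. These proteins act as dimers with one another, bind RNA and DNA, and serve in transcription, splicing and DNA repair outside paraspeckles as well. Nono (ENSMUSG00000031311.16, chromosome X, 101429560 to 101448593) was at 224 and 226 FPKM, the closest replicates by ratio among the 8 genes, with a mean of 225 ± 1.63. Sfpq (ENSMUSG00000028820.12, chromosome 4, 127020716 to 127051101), which is required in human cells for Neat1 to accumulate, was at 112 and 116 FPKM, a mean of 114 ± 3.12. Pspc1 (ENSMUSG00000021938.10, chromosome 14, 56722441 to 56778318), which is dispensable for paraspeckle formation in human cells, was at 51.7 and 54.5 FPKM, a mean of 53.1 ± 1.99.

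Nono exceeded Sfpq by 0.97 ± 0.03 in log2(FPKM + 1), and Sfpq exceeded Pspc1 by 1.09 ± 0.01. No replicate of one DBHS gene overlapped a replicate of another. Of their summed FPKM, Nono made up 57.4 ± 0.571%, Sfpq 29.1 ± 0.296% and Pspc1 13.5 ± 0.276%. The sum was 387 FPKM in replicate 1 and 397 in replicate 2, which was 16.5 and 16.0 times the level of Neat1. These are transcript levels per length, and protein was not measured. The 3′ part of the Sfpq span overlaps that of Zmym1 over 4008 bases, 13.2% of the Sfpq span, and Zmym1 was at 53.1 and 52.6 FPKM. Since the sources leave out whether reads were assigned by strand, how reads in that stretch were divided is uncertain.

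Promoter windows from RefSeq (GRCm38.p6, 250 bases before to 50 bases after a transcript start) were found for 6 of the 8 genes. Those of Malat1 (chr19:5802623-5802922, minus strand), Nono (chrX:101429401-101429700, plus strand), Sfpq (chr4:127021051-127021350, plus strand) and Pspc1 (chr14:56778269-56778568, minus strand) are printed 5′ to 3′, to show the start of the more abundant of the 2 lncRNAs beside those of the graded DBHS family. The starts used for Sfpq and Nono lie downstream of the first base of the gene span given above, so the whole Sfpq window and part of the Nono window lie within the annotated gene, while those of Malat1 and Pspc1 are at the span's 5′ end. Capitals mark matches on either strand to any of 5 motifs. The CCAAT box was searched by the letters of its name, and it overlaps its own reverse complement at one place in Sfpq. The GC box was searched as GGGCGG, and the TATA box was searched with the letters TATAAA. The motif of YY1 type was searched as GCCATNTT, and the half-site of the cyclic AMP response element was searched with the letters TGACGT.
Malat1: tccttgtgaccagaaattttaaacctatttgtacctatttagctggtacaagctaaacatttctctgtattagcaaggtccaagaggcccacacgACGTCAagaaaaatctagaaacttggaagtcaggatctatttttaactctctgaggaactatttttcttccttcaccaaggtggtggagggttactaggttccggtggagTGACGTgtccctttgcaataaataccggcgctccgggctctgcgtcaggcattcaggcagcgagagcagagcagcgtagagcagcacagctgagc
Nono: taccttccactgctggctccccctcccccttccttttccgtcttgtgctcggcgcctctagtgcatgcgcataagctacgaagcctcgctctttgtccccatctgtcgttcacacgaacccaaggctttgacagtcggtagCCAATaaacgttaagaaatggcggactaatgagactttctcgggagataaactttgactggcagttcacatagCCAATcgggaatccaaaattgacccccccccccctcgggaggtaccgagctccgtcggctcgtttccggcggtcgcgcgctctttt
Sfpq: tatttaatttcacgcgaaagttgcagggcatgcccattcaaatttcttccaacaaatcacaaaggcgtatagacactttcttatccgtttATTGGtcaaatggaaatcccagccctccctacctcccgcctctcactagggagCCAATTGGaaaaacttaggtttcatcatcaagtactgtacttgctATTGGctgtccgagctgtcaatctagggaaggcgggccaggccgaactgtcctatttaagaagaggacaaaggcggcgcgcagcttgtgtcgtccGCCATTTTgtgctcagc
Pspc1: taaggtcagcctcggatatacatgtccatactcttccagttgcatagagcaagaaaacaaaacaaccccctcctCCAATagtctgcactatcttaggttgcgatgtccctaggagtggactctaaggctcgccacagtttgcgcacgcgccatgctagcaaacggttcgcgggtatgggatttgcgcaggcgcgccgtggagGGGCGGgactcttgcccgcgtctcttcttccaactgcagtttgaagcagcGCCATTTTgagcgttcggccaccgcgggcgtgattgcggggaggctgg

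The windows differed in composition. The Malat1 window had 47.0% G + C and 10 CpG sites, 0.604 of the number expected from its base content. The Nono window had 55.7% G + C and 23 CpG sites (1.03 of the expected number), the Pspc1 window 57.0% and 23 (0.944), and the Sfpq window 48.0% and 13 (0.758). Across 27025 RefSeq promoters the medians were 52.7% G + C and 0.389 of the expected CpG number.

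All 3 DBHS windows held a CCAAT box, 2 in Nono, 4 in Sfpq and 1 in Pspc1, and Malat1 held none of these letters. Among the 6 windows 4 held a CCAAT box, the fourth being Rbm14, against 37.9% of all promoters. The YY1-type motif began at position 34 in Sfpq and at position 3 in Pspc1, counting the first base of the transcript start used as 1, both spelled GCCATTTT, and was found in 6.23% of all promoters. Malat1 alone of the 6 held the TGACGT half-site, at positions -155 and -45 from the start, against 7.64% of all promoters. A GC box was found in Pspc1 and Tardbp, 2 of the 6 windows, against 35.9% of all promoters, and a TATA box in none of the 6, against 14.2%. These motifs were chosen after the windows were seen, and a match is not evidence that a factor binds.

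Matr3 and Tardbp were the most abundant of the protein genes. Matr3 (ENSMUSG00000037236.13, chromosome 18, 35562158 to 35592045), which encodes the nuclear matrix protein matrin 3 and is, like Tardbp, mutated in some families with amyotrophic lateral sclerosis (ALS), was at 367 and 375 FPKM, a mean of 371 ± 5.95. Tardbp (ENSMUSG00000041459.14, chromosome 4, 148612382 to 148627084), which encodes a splicing and 3′-end regulator that binds UG-rich RNA, was at 352 and 371 FPKM, a mean of 361 ± 13.5. Matr3 was higher than Tardbp within each replicate, by 0.04 ± 0.03 in log2(FPKM + 1), while across replicates the upper Tardbp value lay above the lower Matr3 value. They stood at percentiles 98.9 and 98.9 of all genes. Tardbp exceeded Neat1, the RNA whose polyadenylation it is known to affect, 15.0-fold in both replicates, by 3.85 on the log2(FPKM + 1) scale.

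The spans of these genes bear on how firmly the values can be read. RefSeq lists 9 curated Tardbp transcripts, and the gene value combines them. The Tardbp span shares 3118 bases, 21.2% of its length, with that of Masp2, a complement protease gene at 2.30 and 1.53 FPKM. For Matr3 the gene-name reference lists a pseudogene copy, Matr3-ps2, which has no value in the deposited table, so reads shared with it are a source of uncertainty.

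Rbm14 was the lowest of the 8. It encodes a coactivator with prion-like stretches that human cells need for paraspeckles to assemble. Rbm14 (ENSMUSG00000006456.10, chromosome 19, 4800566 to 4811634) was at 17.6 and 19.6 FPKM, a mean of 18.6 ± 1.45, at percentile 84.3 of all genes and 60.2 of the detected ones. Both replicates lay below those of Neat1, with Neat1 higher by 0.36 ± 0.05 in log2(FPKM + 1). Against Nono, Rbm14 differed by -3.53 ± 0.10 on that scale. The whole Rbm14 span lies within that of Gm21992 (chromosome 19, 4742913 to 4811634), a protein-coding gene in RefSeq whose span also covers Rbm4 and Rbm4b. Gm21992 was at 18.5 and 17.9 FPKM, Rbm4 at 70.2 and 75.6 and Rbm4b at 22.2 and 22.3. How reads were divided between Rbm14 and Gm21992 is not known, so the low place of Rbm14 is uncertain.

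The replicates agreed closely for all 8 genes, though each was higher in replicate 2. Rbm14 differed most, by 0.16 in log2 FPKM, and Malat1 by 0.11, while Nono differed by 0.01. Among all genes at a mean of at least 10 FPKM, 47.6% were higher in replicate 2. The central 95% of log2 ratios ran from -0.29 to 0.22 in the 5314 genes at 10 to 100 FPKM and from -0.24 to 0.14 in the 899 genes at 100 to 1000 FPKM, and all 8 genes lay inside the range for their level. Of the 13 differentiation and fibroblast markers, most of them at low levels, 9 were higher in replicate 2. Over all 28592 genes 10541 were, while 8009 were at 0 in both replicates. The summed levels of the markers were 20.0 FPKM in replicate 2 and 19.1 in replicate 1. Their part in the small differences of the 8 genes was not tested. The fibroblast collagen genes had the largest ratios among markers above 0 in both, Col1a2 at 0.917 and 0.0101 FPKM and Col1a1 at 0.552 and 0.0136 FPKM in replicates 2 and 1, all below the detection limit. This pair was named after its values were seen.

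**Figure D3:**
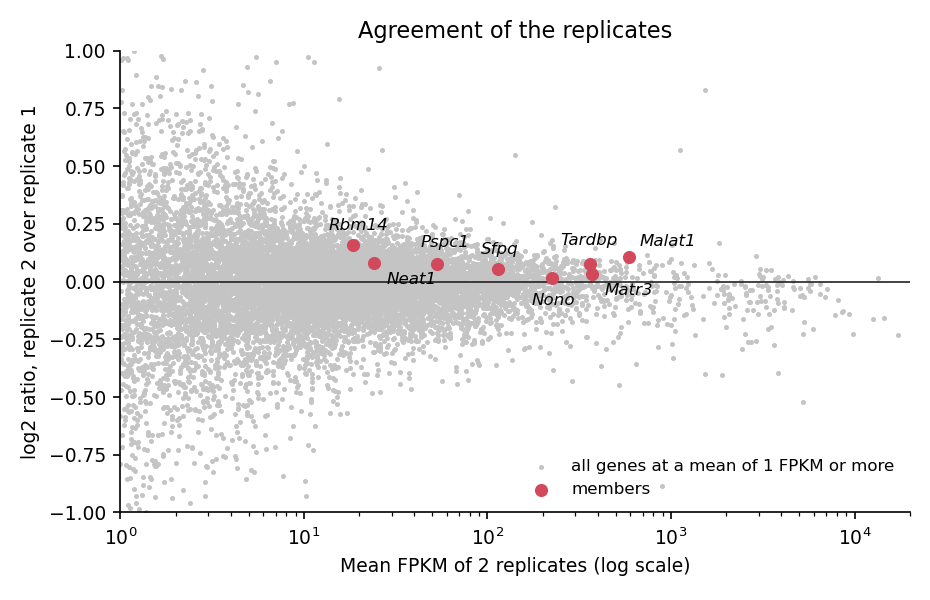
The log2 ratio of replicate 2 to replicate 1 against mean FPKM (log axis) for all genes at a mean of 1 FPKM or more (grey, ratios beyond 1 not drawn) and the 8 genes (red). The 8 lie between 0.01 and 0.16, within the grey band at their level.

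Other genes of the same machinery were compared by lists. Of 8 factors known to be needed for paraspeckles to form in human cells, 3 of them among the genes above, all 8 were detected, with a median of 46.4 FPKM. Hnrnpk, which favours the long Neat1 isoform in human cells by interfering with early polyadenylation, led them at 971.6 ± 40.1 FPKM, above Malat1. Nono and Sfpq followed. The SWI/SNF ATPase gene Smarca4 was at 15.9 ± 0.465 and Hnrnph3 at 11.6 ± 0.321, below Rbm14.

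Of 31 further proteins reported in human paraspeckles 25 were detected. The median over all 31 was 31.3 FPKM (32.0 and 28.1 in replicates 1 and 2). The splicing regulators Hnrnpf and Hnrnpa1 led, at 1059 ± 13.8 and 828 ± 30.0, followed by the cold-inducible RNA-binding protein gene Rbm3 at 527 ± 13.0. The transcription factor genes Bcl11a and Dlx3 were lowest, at 0.0619 ± 0.0168 and 0.00540 ± 0.00764. Of these 31 genes 16 lay above Neat1 and 2 above Malat1.

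All 17 genes listed for 3′-end formation, some of them known to bear on the choice between the Neat1 isoforms, were detected. Their median was 35.0 FPKM, and 14 of the 17 lay above Neat1. After Hnrnpk and Tardbp the highest was the nuclear poly(A)-binding protein gene Pabpn1 at 96.4 ± 3.66. The cleavage factor gene Cpsf7 was lowest at 12.4 ± 0.839, after Cpsf1 at 14.4 ± 0.244. Nudt21 and Cpsf6, the other cleavage factor I genes, known from human cells to promote the short isoform, were at 89.3 and 94.2 FPKM and at 71.4 and 76.8 FPKM. This pair was chosen for its role after its values were seen.

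RNase P and RNase Z cut the tRNA-like ends of Malat1 and of long Neat1. All 12 genes of a list drawn up around that step, not all of them subunits of these enzymes, were detected, with a median of 32.2 FPKM. The RNase P subunit genes Pop5, Pop4 and Rpp40 were highest, at 153 ± 1.67, 71.8 ± 1.10 and 63.5 ± 3.62, and Pop7 and Rpp38 lowest, at 25.5 ± 3.46 and 12.6 ± 0.975. No gene of this list reached the level of Malat1.

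All 24 genes of nuclear speckle proteins were detected, with a median of 127 FPKM, and 14 of the 24 were at 100 or more. They were led by the splicing factor genes Srsf5 at 656 ± 4.88, Srsf3 at 499 ± 11.9 and Srsf1 at 430 ± 9.68, and Srrm1 and Srsf4 were lowest at 12.1 ± 0.442 and 7.21 ± 0.632. Only Srsf5 of the 24 stood above Malat1. The list median for speckle proteins thus stood above that for paraspeckle formation factors, which is given as a description.

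Among 9 RNA-binding protein genes linked to ALS or to the FET family, Hnrnpa1, Hnrnpa2b1 (383 ± 27.4) and Matr3 were highest, and Taf15 and Atxn2 lowest, at 17.6 ± 1.62 and 6.37 ± 0.568. All 9 were detected, with a median of 231 FPKM. Matr3 also led 10 genes of the nuclear matrix and of its splicing partners, before Hnrnpl at 205 ± 4.83 and Ptbp1 at 133 ± 1.78. Of these 10 genes 9 were detected, and the median over all 10 was 56.1. The partner gene Raver1 was at 4.93 ± 0.512 and the chromatin organiser gene Satb1 at 0.265 ± 0.106.

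Of 6 transcription regulators reported to act on Neat1, 5 were detected, and the median over all 6 was 28.9 FPKM. Trp53, encoding p53, was at 42.3 ± 1.04, Hif1a at 39.1 ± 0.108 and Brca1 at 38.0 ± 1.21, whereas the heat shock factor gene Hsf1 was at 5.42 ± 0.380 and the hypoxia factor gene Epas1 at 0.579 ± 0.138. Of 6 measured genes for paraspeckle modifiers and RNA editing 5 were detected, and the median over all 6 was 10.2. The chromatin remodeller subunits Smarcb1 and Smarcc1 were at 50.9 ± 2.80 and 29.3 ± 1.22, the editing enzyme genes Adar and Adarb1 at 12.4 ± 0.153 and 1.36 ± 0.0571, and Slc7a2, whose nuclear-retained transcript is a known paraspeckle RNA in mouse, at 0.0381 ± 0.00934.

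Other lncRNAs, listed as nuclear though location was not measured, were set beside the pair. There were 12 with a value and 8 above the detection limit, where 311 of all 3148 lncRNA genes were detected. The median over all 12 was 33.8 FPKM, and none exceeded Malat1. Rian came nearest, at 503 ± 10.2, and both of its replicates lay below those of Malat1. Lncenc1 was at 124 ± 2.72 and the snoRNA host Gas5 at 113 ± 7.10, and 7 of the 12 lay above Neat1. Miat, a lncRNA of other nuclear bodies in neurons, was at 0.0638 ± 0.0473, and Airn, an imprinted antisense RNA, at 0.0575 ± 0.0408. For scale, the 14 housekeeping genes, all above the detection limit, had a median of 229 FPKM, and ran from Ppia (5734 ± 117), Gapdh (2075 ± 56.8) and Rplp0 (2023 ± 25.3) to B2m (10.3 ± 0.128) and Polr2a (2.70 ± 0.621).

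**Figure D4:**
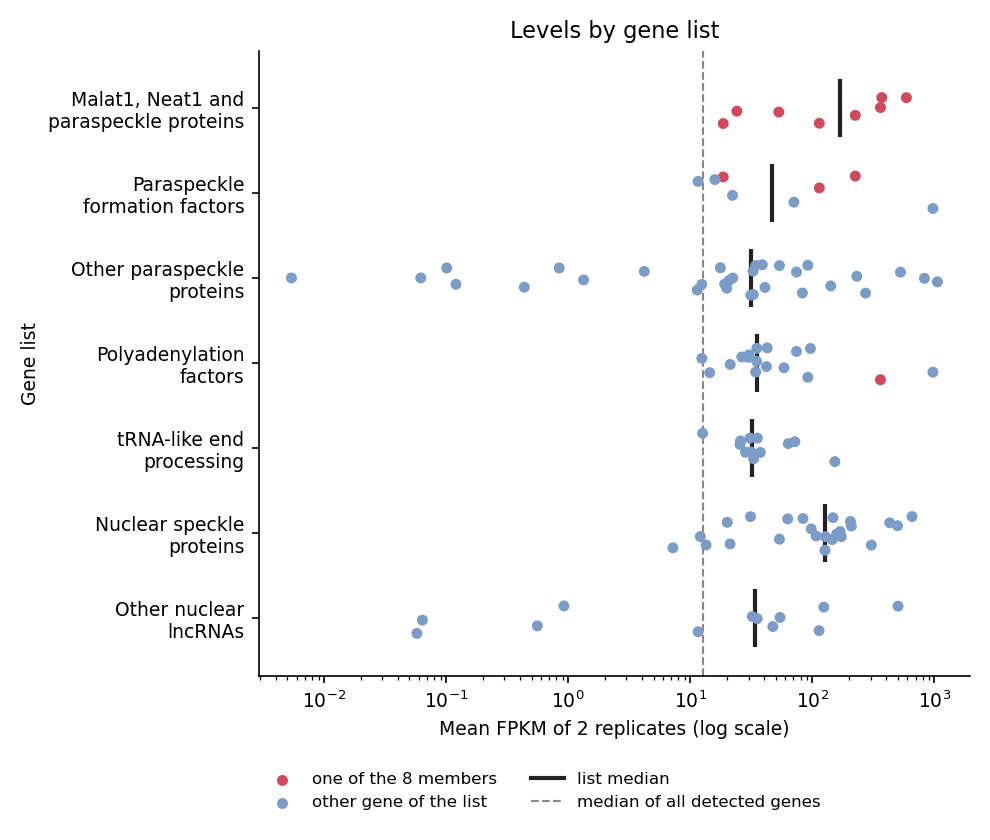
Mean FPKM (log axis) of each gene of 7 lists (the 8 genes described here, paraspeckle formation factors, other paraspeckle proteins, polyadenylation factors, tRNA-like end processing, nuclear speckle proteins and other nuclear lncRNAs), with members in red, other genes in blue, the list median as a bar and the median of all detected genes, 12.7 FPKM, as a dashed line. The 7 list medians drawn lie to the right of that line, at 169 FPKM for the 8 genes. List medians count all measured genes, while the line counts detected ones only. Of the lists not drawn, the ALS and FET list (231 FPKM), the housekeeping list (229) and the ES cell markers (218) had medians above that of the 8 genes. The others were lower, and paraspeckle modifiers (10.2) and differentiation markers (0.221) lay below the line.

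Malat1 and Neat1 lie 22035 bases apart, and their levels were compared with those of the genes around them. Of 32 genes with a value within 250 kb of either, most of them protein-coding, 22 were detected. The median over all 32 was 5.28 FPKM. For comparison, 39.4% of all genes and 10472 of the 20713 protein-coding genes were detected. Fau, which encodes a ribosomal protein fused to a ubiquitin-like one, was the only one above Malat1, at 2070 ± 117 FPKM, and 8 of the 32 exceeded Neat1. Within 100 kb 8 of 13 genes were detected. Those on the side of Malat1 included Znrd2 at 56.6 ± 4.93, Fam89b at 4.83 ± 1.04 and Map3k11 at 3.33 ± 0.0305. On the side of Neat1 they were Frmd8, the nearest gene, at 11.3 and 10.7 FPKM, Dpf2 at 34.1 ± 1.43, Cdc42ep2 at 2.41 ± 0.0869 and the DNA polymerase subunit gene Pola2 at 26.4 ± 1.56.

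The other 5 genes within 100 kb were below the limit. Ltbp3 was at 0.0780 ± 0.0219, Ehbp1l1 at 0.439 ± 0.0212, Slc25a45 at 0.422 ± 0.0539, Tigd3 at 0.959 ± 0.336 and Kcnk7 at 0.0128 ± 0.0180.

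**Figure D5:**
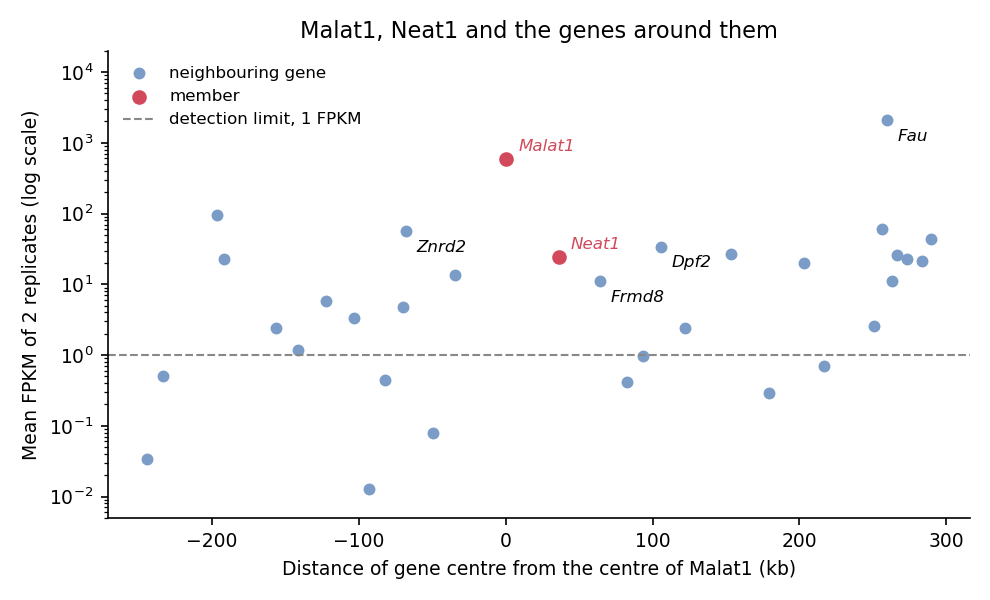
Mean FPKM (log axis) of Malat1, Neat1 (red) and 31 neighbouring genes above 0 FPKM (blue) against the distance of the gene centre from that of Malat1 in kb, with the detection limit of 1 FPKM as a dashed line. Malat1 at 589 FPKM stands above every gene drawn except Fau.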

How the data were processed

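RNA levels in 2 replicates of 1 group were analysed from 1 table. The deposited FPKM values, 1 per gene and replicate, were made by the authors with CASAVA, TopHat2 and Cufflinks on mm10 and GRCm38, per the submitters' processing notes. Not given in the sources used here are versions, annotation and use of strand. Cufflinks estimates abundances, so a 0 can be a failed estimate.

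Columns were matched to replicates by the sample descriptions, gene symbols by stable identifier (28256 of 28592 genes), and types and spans by symbol to RefSeq on GRCm38.p6 (24242 genes). Levels were described as FPKM (mean ± SD, n = 2) and as log2(FPKM + 1), which understates differences of low genes. A gene was detected at 1 FPKM or more in both replicates. Medians of lists and of neighbours count all genes with a value, detected or not. Percentiles count genes below a value, with ties split evenly. The depth in reads is unknown. Of 2288 genes with a mean under 0.1 FPKM and values above 0, 66.8% had a replicate ratio that matched, to 0.01 in log2, one between whole numbers of at most 8, so low values carry few reads, and high ones are more precise. No count model fits such values, and no test was made.

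The members and the 14 gene lists were chosen with earlier results of these data known. Named genes were the members, the 3 highest and 2 lowest of each list, all ES cell markers, genes with a value within 100 kb of Malat1 or Neat1 (1 is not reported here), and the 3 nearest in level to each. Alternatives were pseudocounts, detection limits, scaling, comparison sets, windows and leaving out a replicate. Code was tested on simulated data. Python 3.11.15, NumPy 2.4.6, pandas 2.3.3 and Matplotlib 3.10.9 were used.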

Additional observations from a re-analysis of the deposited data

How the results depend on the processing

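No paired analysis of groups was possible because the series has 1 group, and differences between genes were taken within each replicate. Rescaled to a sum of 1000000 in each replicate (TPM), the mean levels were 629 for Malat1, 396 for Matr3, 386 for Tardbp, 239.8 for Nono, 122 for Sfpq, 56.7 for Pspc1 and 25.7 for Neat1, a shift beyond 1 SD that leaves every ratio within a replicate as it was, and Rbm14 moved by less than its SD. Centring the replicates by the median ratio moved no member by 1 SD, but that ratio was -0.0039 in log2, so little shift was possible. With pseudocounts of 0.1 and 0.01, Malat1 exceeded Neat1 by 4.61 and 4.61 in log2, Tardbp exceeded Neat1 by 3.90 and 3.91, and Sfpq exceeded Pspc1 by 1.10 at 0.01. None of the 7 differences between members changed sign, and none could. Each pair had the same order in both replicates, which neither another pseudocount nor leaving out a replicate can reverse.

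Among detected genes only, the percentile of Malat1 was 98.1 and that of Neat1 66.6, and among protein-coding and lncRNA genes they were 99.2 and 84.7. Restricted to members at 1 FPKM or more, list medians became 34.3 for other paraspeckle proteins, 76.8 for the nuclear matrix, 38.0 for Neat1 regulators, 12.4 for modifiers, 50.9 for nuclear lncRNAs and 3.74 for differentiation markers. Leaving out each replicate gave medians of 28.1 to 32.0 for other paraspeckle proteins, 35.5 to 37.0 for polyadenylation factors and 32.1 to 32.2 for end processing. Differentiation markers numbered 8 at a limit of 0.1 FPKM and 1 at 5 FPKM, and no other list count changed by over 1.5 times. Neighbours detected numbered 8 within 100 kb (median 3.33) and 44 within 500 kb. Of all alternative values, 157 moved by less than the spread of the replicates or, for counts, by at most 1.5 times, and 43 by more. With 2 replicates, leaving out 1 always moves a mean by less than their SD. For levels and for differences between members, those runs could thus only count among the 157, which is no measure of robustness. The limits are 2 replicates, unknown read depth, gene-level values that merge isoforms, and no second condition.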
